A study of Homo sapiens with 9 samples.

Results

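The 9 genes described here encode the MHC class I antigen presentation machinery: the heavy chains HLA-B, HLA-C and HLA-E, the light chain B2M, the peptide transporter subunits TAP1 and TAP2, the loading chaperone TAPBP (tapasin), the immunoproteasome subunit PSMB8 and the transcriptional coactivator NLRC5. They were taken by symbol from a table of 19706 usable gene entries, and all 9 had an entry. Of these 9 genes, 7 were under 1 scaled TPM in all 9 libraries, and 2 of those, TAP1 and PSMB8, were listed at 0 throughout. B2M was the 1 gene with values in every library that passed the filter on low values (1 scaled TPM or more in at least 3 libraries), which 13076 genes passed. HLA-B, the remaining gene, exceeded 1 scaled TPM in 1 Kelly library. Most of these genes lie in a stretch of chromosome 6 in which 102 of 139 protein-coding genes were under 1 scaled TPM throughout. Broadly expressed genes were among them, though these were picked after their values had been seen. Whether the low values reflect low expression of class I therefore cannot be told here, and their cause was not tested.

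Class I molecules display peptides from inside the cell to cytotoxic T cells. Proteasomes cut cytosolic proteins, the TAP1-TAP2 pump carries the fragments into the endoplasmic reticulum, and tapasin, calreticulin and ERp57 hold the heavy chain with its light chain until a peptide of good fit is bound. Interferon-gamma raises the whole set through IRF1 and NLRC5, and replaces standard proteasome subunits with immunoproteasome subunits such as PSMB8. Neuroblastoma, a childhood tumour of the sympathetic lineage, is known for low class I on its cells, and natural killer cells respond to cells that lack it.

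Polyadenylated RNA was sequenced from untreated cells of 3 human neuroblastoma lines with 3 libraries each: Kelly and BE(2)C, labelled as MYCN amplified, and SH-SY5Y, labelled as not amplified. BE(2)C and SH-SY5Y are clonal derivatives of longer-standing lines. With 1 line lacking the amplification, MYCN status and line identity cannot be told apart, and separate cultures are not stated for the libraries of a line, so p-values reflect no more than the spread between libraries, possibly technical. MYCN averaged 5969 ± 77.6 scaled TPM in Kelly cells, 6050 ± 1088 in BE(2)C cells and 27.3 ± 1.01 in SH-SY5Y cells (SD, n = 3 each), as the labels have it.

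Values are TPM (transcript abundance per length, with a fixed total) rescaled to the genes of each library, called scaled TPM. TPM keeps no depth, so the depth of the libraries is unknown. Spike-in RNA, which had been added to the samples, took 83.7% to 90.6% of each library's total. Of 61 abundant spike-ins, limma called 49 in Kelly against SH-SY5Y, 0 in BE(2)C against SH-SY5Y (largest shift 0.18 on the log2 scale) and 53 in Kelly against BE(2)C. The largest of the Kelly shifts were 1.42 against SH-SY5Y and 1.24 against BE(2)C, so Kelly libraries stand apart in added RNA too, and the part of this in the Kelly comparisons was not tested. All 11 neuroblastoma markers passed the filter, although the catecholamine enzyme TH was at 0, 0.227 and 0.346 scaled TPM in SH-SY5Y. Of 12 leukocyte markers 3 passed (CD8A, CD14 and LYZ), and the pan-leukocyte gene PTPRC was listed at 0 in 8 libraries.

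The light chain gene B2M (ENSG00000166710, chr15:44711487-44718877, plus strand, GRCh38) was the most abundant of the 9 genes in every line. B2M was at 13.3, 17.4 and 12.1 scaled TPM in the Kelly libraries, at 24.2, 40.0 and 30.1 in the BE(2)C libraries and at 14.6, 7.39 and 9.69 in those of SH-SY5Y. All BE(2)C libraries lay above all libraries of the other lines, while Kelly and SH-SY5Y overlapped. Averages were 14.2 ± 2.82 in Kelly cells, 31.4 ± 7.98 in BE(2)C cells and 10.6 ± 3.68 in SH-SY5Y cells (SD, n = 3 each). These levels exceeded those of 42.4% of tested genes in Kelly cells, 62.8% in BE(2)C cells and 34.2% in SH-SY5Y cells.

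B2M was higher in BE(2)C cells than in SH-SY5Y cells by 1.51 ± 0.26 on the log2(scaled TPM + 1) scale (SE; limma, adjusted p = 8.76e-04), a 2.84-fold difference on that scale. It was lower in Kelly than in BE(2)C by the same test (-1.08 ± 0.26, adjusted p = 0.00711). Kelly and SH-SY5Y differed by 0.43 ± 0.26 (adjusted p = 0.194), which did not pass. Calls of this kind were common in these lines: 55.3% of tested genes were called in Kelly against SH-SY5Y, 59.4% in BE(2)C against SH-SY5Y and 52.5% in Kelly against BE(2)C. The call of 1 gene between BE(2)C and SH-SY5Y is thus what most tested genes gave. On the values as deposited, the BE(2)C against SH-SY5Y difference was 0.73 (adjusted p = 0.00592), with a median over all genes of -0.35.

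Of the markers of connective tissue, DCN and LUM were, like B2M, highest in BE(2)C, and COL3A1 was not. DCN, a matrix proteoglycan, was at 1.41, 0.910 and 0.395 scaled TPM in Kelly, at 5.63, 16.6 and 14.6 in BE(2)C and at 2.81, 3.27 and 1.36 in SH-SY5Y. LUM, its relative lumican, was at 0.137, 0.0425 and 0 in Kelly, at 6.51, 9.62 and 7.53 in BE(2)C and at 5.80, 2.68 and 3.42 in SH-SY5Y. Of the 8 fibroblast and endothelial markers, 5 passed the filter. In BE(2)C against SH-SY5Y, 2 were called higher (DCN and LUM) and 1 lower (COL3A1, -0.64 ± 0.17). COL1A1 and PDGFRB were not called. In Kelly against SH-SY5Y, where B2M was 0.43 ± 0.26, LUM was lower (-2.18 ± 0.25) and DCN was not called (-0.86 ± 0.40). The summed level of the 8 markers ran from 45.4 to 54.7 in Kelly cells, from 52.6 to 87.5 in BE(2)C cells and from 50.2 to 58.5 in SH-SY5Y cells, most of it PDGFRB. The summed leukocyte markers ran from 3.60 to 9.23 in Kelly cells, from 6.99 to 14.6 in BE(2)C cells and from 11.2 to 12.6 in SH-SY5Y cells, and CD8A, at 5.25 ± 0.621 in SH-SY5Y, was listed at 0 in all Kelly and BE(2)C libraries. The part of other cell types in the B2M difference was not tested, and in bulk RNA fewer cells of a type and less RNA per cell cannot be told apart.

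**Figure D1:**
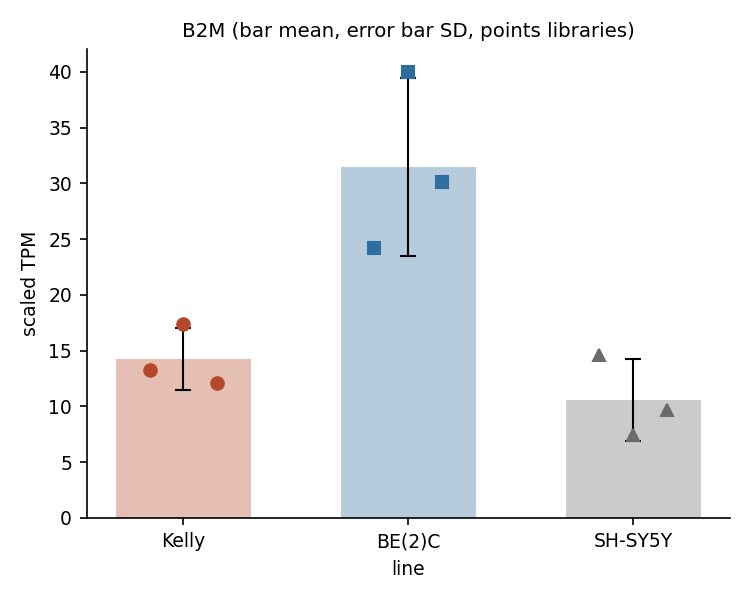
Level of B2M in scaled TPM for Kelly, BE(2)C and SH-SY5Y; bars are means, error bars the SD and points the 3 libraries of a line. B2M is highest in BE(2)C, with an average of 31.4, and the Kelly and SH-SY5Y points overlap.

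By profile over the 9 libraries, the genes most like B2M were RPS23 (a ribosomal protein; root mean square difference of centred log2 profiles 0.22), ATP6V0E1 (a subunit of the proton pump of acid vesicles; 0.22) and PDLIM4 (a cytoskeletal adaptor; 0.24). RPS23 averaged 104.5 ± 12.8 scaled TPM in Kelly cells, 221 ± 9.30 in BE(2)C cells and 83.8 ± 20.3 in SH-SY5Y cells (SD, n = 3 each). The genes around B2M on chromosome 15 gave ordinary values: of 12 protein-coding genes within 500 kb, 7 passed the filter, and the median of the 12 was 14.1 scaled TPM.

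The 3 heavy chain genes among the 9 were far lower than B2M. HLA-B (ENSG00000234745, chr6:31269491-31357188, minus strand), a classical heavy chain, was at 1.80, 0.297 and 0.402 scaled TPM in Kelly, at 0, 0.260 and 0.265 in BE(2)C and at 0 in all SH-SY5Y libraries. Every Kelly library lay above every other library, and the 1.80 of Kelly library 1 was the 1 value at or above 1 among the 63 values of the 7 genes on chromosome 6. HLA-C (ENSG00000204525, chr6:31268749-31272130, minus strand), the second classical chain here and a ligand of killer-cell inhibitory receptors, was at 0, 0 and 0.0371 in Kelly, at 0.325, 0 and 0 in BE(2)C and at 0.0212, 0 and 0 in SH-SY5Y. HLA-E (ENSG00000204592, chr6:30489467-30494205, plus strand), which shows signal peptides of other class I chains to natural killer cells, was listed at 0 except for 0.0776 in SH-SY5Y library 2. All 3 were under the filter, and the lines overlapped for HLA-C and HLA-E. In a fit without the filter HLA-B was higher in Kelly against SH-SY5Y (0.78 ± 0.27; limma, adjusted p = 0.0429), where SH-SY5Y is listed at 0.

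These chains resemble one another, so their values are uncertain one by one. In GENCODE 29 transcripts, 12.2% of the 31-base words of HLA-B also occurred in another gene, mostly HLA-C, against 15.9% for HLA-C and 10.3% for HLA-E. The annotated spans of HLA-B and HLA-C also overlap on the same strand. No source used here says how reads that fit several genes were placed.

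The peptide pump and its chaperone were near 0 in all libraries. TAP1 (ENSG00000168394, chr6:32845209-32853978, minus strand), the first subunit of the pump, was listed at 0 in all 9. TAP2 (ENSG00000204267, chr6:32821833-32838780, minus strand), the second subunit, was at 0.0741, 0.0469 and 0.125 scaled TPM in Kelly, at 0.602, 0.460 and 0.337 in BE(2)C and at 0.723, 0.366 and 0.408 in SH-SY5Y. All Kelly libraries lay below all others for TAP2. It was under the filter; in a fit without it (17161 genes), TAP2 was lower in Kelly than in SH-SY5Y (-0.46 ± 0.11, limma, adjusted p = 0.00801) and than in BE(2)C (-0.44 ± 0.11, adjusted p = 0.0117). As 31.7% of its words are shared with the annotated gene AL669918.1, that low level is uncertain.

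TAPBP (ENSG00000231925, chr6:33299694-33314387, minus strand), which bridges the heavy chain to the pump, was at 0.137, 0.153 and 0.133 scaled TPM in Kelly, at 0.164, 0.277 and 0.508 in BE(2)C and at 0.530, 0.214 and 0.298 in SH-SY5Y. Kelly was the lowest line here too, with no library reaching those of the other lines. Without the filter its differences did not pass (Kelly against SH-SY5Y -0.23 ± 0.11, limma, adjusted p = 0.142).

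PSMB8 (ENSG00000204264, chr6:32840717-32844703, minus strand), the immunoproteasome subunit that takes the place of PSMB5, was listed at 0 in all 9 libraries. None of its 31-base words occurred in a gene of another name in the annotation. Copies under the same name were not counted, so this leaves them unexamined. NLRC5 (ENSG00000140853, chr16:56989485-57083531, plus strand), the coactivator of class I promoters, was at 2.82e-04, 0.0272 and 0 scaled TPM in Kelly, at 0.0334, 0.707 and 0.327 in BE(2)C and at 0.0269, 0 and 0.0191 in SH-SY5Y. Each BE(2)C library was above all others, by little in 1 of them, and without the filter the difference from SH-SY5Y did not pass (limma, adjusted p = 0.0708). NLRC5 lies outside chromosome 6 among genes with ordinary values: of 30 protein-coding genes within 500 kb, 17 passed the filter and the median was 4.24 scaled TPM.

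**Figure D2:**
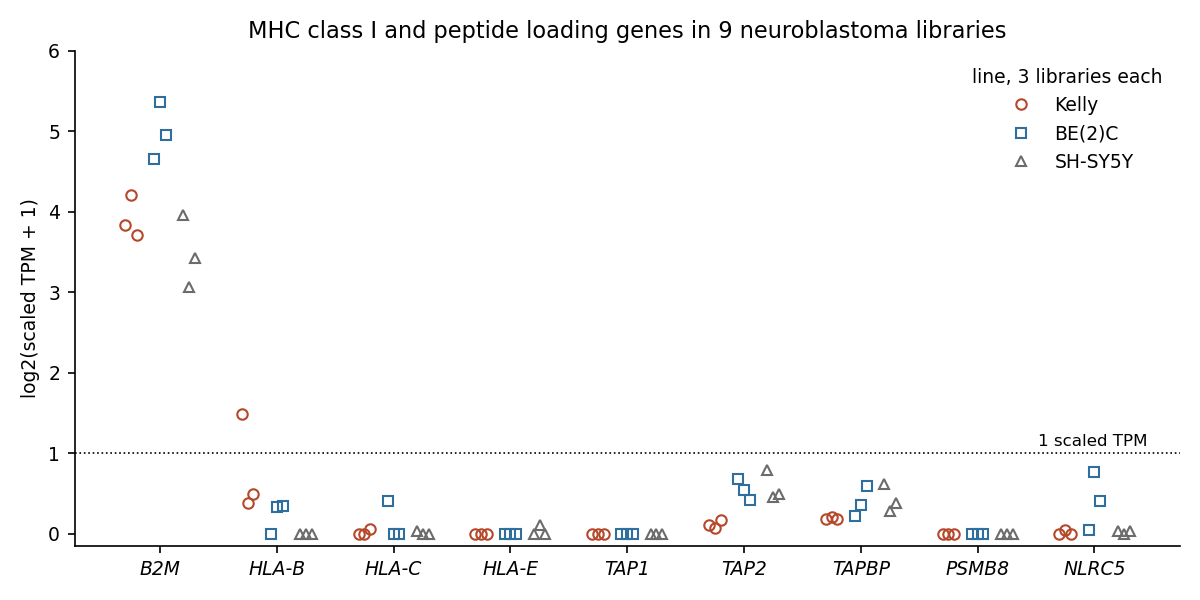
Values of the 9 genes in each library on the log2(scaled TPM + 1) axis, with Kelly, BE(2)C and SH-SY5Y side by side and 3 points a line; the dotted line marks 1 scaled TPM. B2M lies above the line in all 9 libraries, HLA-B in 1, and the other 7 genes lie under it everywhere.

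Within a line the order below B2M was mostly unresolved. In Kelly, HLA-B came second, followed by TAPBP and TAP2 without overlap between neighbours, and the rest overlapped. In BE(2)C the neighbours from TAP2 down through NLRC5, TAPBP, HLA-B and HLA-C overlapped. In SH-SY5Y, TAP2 and TAPBP overlapped each other and lay above the remainder. In all, 38 of the 81 values were listed at 0, and 36 of these were among the 63 values of the genes on chromosome 6.

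Class I genes share interferon and CCAAT elements. Promoter sequence is shown for B2M, for TAP1 and PSMB8, listed at 0 throughout, and for HLA-B. Matches in HLA-C, TAP2 and TAPBP are not printed. RefSeq promoter windows (GRCh38.p14, 250 bases before to 50 after each start) matched 7 of the 9 genes, by symbol; HLA-E and NLRC5 had none. The letters GAAANNGAAA, a form of the interferon-stimulated response element, were searched on both strands and occurred in 5 of the 7 (B2M, PSMB8, TAP1, TAP2 and TAPBP), against 3.57% of 35116 windows of all genes. The letters CTGATTGG, a CCAAT box form, occurred in B2M, HLA-B and HLA-C, against 3.97% of windows. The 7 genes had 9 windows together, and a match in any window of a gene counts. These counts are thus by gene and the shares by window. Capitals mark the matches, which in PSMB8 and TAP1 and in HLA-B read on the opposite strand. The stretches printed, each cut from its gene's window, are B2M at chr15:44711348-44711413 and chr15:44711440-44711497 (plus strand), HLA-B at chr6:31357203-31357260, TAP1 at chr6:32853798-32853863 and PSMB8 at chr6:32844017-32844076 (all minus strand).
B2M interferon element: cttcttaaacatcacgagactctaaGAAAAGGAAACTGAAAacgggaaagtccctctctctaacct
TAP1 interferon element: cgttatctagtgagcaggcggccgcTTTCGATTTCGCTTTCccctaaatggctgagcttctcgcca
PSMB8 interferon element: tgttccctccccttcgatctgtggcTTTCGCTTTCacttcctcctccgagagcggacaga
B2M CCAAT box: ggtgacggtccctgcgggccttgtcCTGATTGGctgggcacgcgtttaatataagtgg
HLA-B CCAAT box: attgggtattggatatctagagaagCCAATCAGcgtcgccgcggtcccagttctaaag
B2M, with values in every library, and TAP1 and PSMB8, listed at 0 in every library, thus hold the same interferon element form, and B2M and HLA-B the same CCAAT form. A match describes the letters of the window and shows no binding.

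The 7 genes on chromosome 6 share a neighbourhood that the choice by name did not use. They lie between HLA-F and TAPBP (chr6:29722775-33314387, GRCh38, 3.59 Mb), where the table had 139 protein-coding genes. Of these 139, 102 (73.4%) were under 1 scaled TPM in all 9 libraries, 67 were listed at 0 in all 9, and 26 (18.7%) passed the filter. In a flank of the same length before HLA-F, 32.2% of 90 genes were under 1 throughout, and in one after TAPBP, 28.6% of 56. Over all 18506 placed protein-coding genes the share was 28.1%. The median level was 0.0132 scaled TPM in the interval, 1.92 before it, 10.5 after it and 6.96 over all placed genes.

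Past the TAPBP end levels rose within a short distance, though not in every gene. KIFC1, a mitotic kinesin, lies 0.0771 Mb beyond TAPBP and averaged 101 scaled TPM over the 9 libraries. Between them, ZBTB22 averaged 1.65 and DAXX, a histone chaperone, 2.95. Beyond KIFC1, PHF1 averaged 0.799 and CUTA 57.5. On the other side the genes with ordinary values began farther out, with the transposon-derived ZBED9 at 5.33 scaled TPM, 1.11 Mb before HLA-F.

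**Figure D3:**
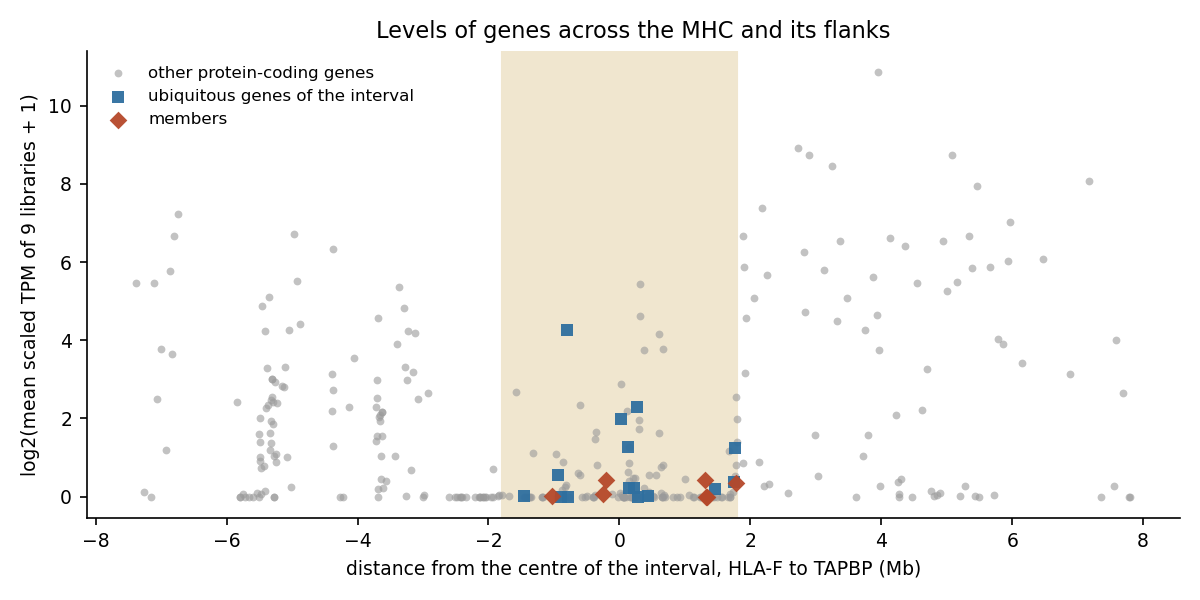
Mean level over the 9 libraries on a log2(scaled TPM + 1) axis against distance in Mb from the centre of the interval from HLA-F to TAPBP (shaded), for protein-coding genes of chromosome 6. Members (diamonds) and ubiquitous genes (squares) of the interval sit mostly at the bottom, with a median in the interval of 0.0132 scaled TPM against 10.5 in the flank to its right.

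Broadly expressed genes were among those at or near 0 in the interval. For this, 15 ubiquitous genes of the interval were picked after their values had been seen. Of the 15, 10 were under 1 scaled TPM in all libraries and 5 passed the filter. MRPS18B (mitochondrial ribosome), FLOT1 (membrane microdomains) and LSM2 (U6 snRNP core) were listed at 0 in all 9. RPS18, a protein of the small ribosomal subunit, averaged 0.294 scaled TPM, the lowest of 77 cytosolic ribosomal protein genes, of which the other 76 had a median of 663. RPS18 shares 21.9% of its words with genes of other names, whereas VARS, like PSMB8, shares 0%. Copies under the same name were not counted.

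Some interval genes were at 0 in 1 line and ordinary in the others. VARS, the valyl-tRNA synthetase that protein synthesis requires, was at 5.14, 7.29 and 4.32 scaled TPM in Kelly, at 0 in all BE(2)C libraries and at 6.50, 5.27 and 6.75 in SH-SY5Y. RNF5, a ubiquitin ligase of the endoplasmic reticulum, was at 18.1, 20.2 and 21.9 in Kelly, at 20.4, 17.6 and 15.9 in BE(2)C and at 0 in all SH-SY5Y libraries. TUBB, a beta tubulin, averaged 29.6 ± 1.27 in Kelly and 24.5 ± 1.40 in BE(2)C (SD, n = 3 each), against 0.275, 0 and 0.414 in the libraries of SH-SY5Y. Whether the 0 of VARS in BE(2)C measures its RNA cannot be told here. The same limit holds for the line differences of HLA-B, TAP2 and TAPBP, which lie in this interval. The cause of the low values was not tested. The table also has entries for HLA-DRB3 and HLA-DRB4, listed at 0, which the primary assembly annotation of GENCODE 29 lacks.

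**Figure D4:**
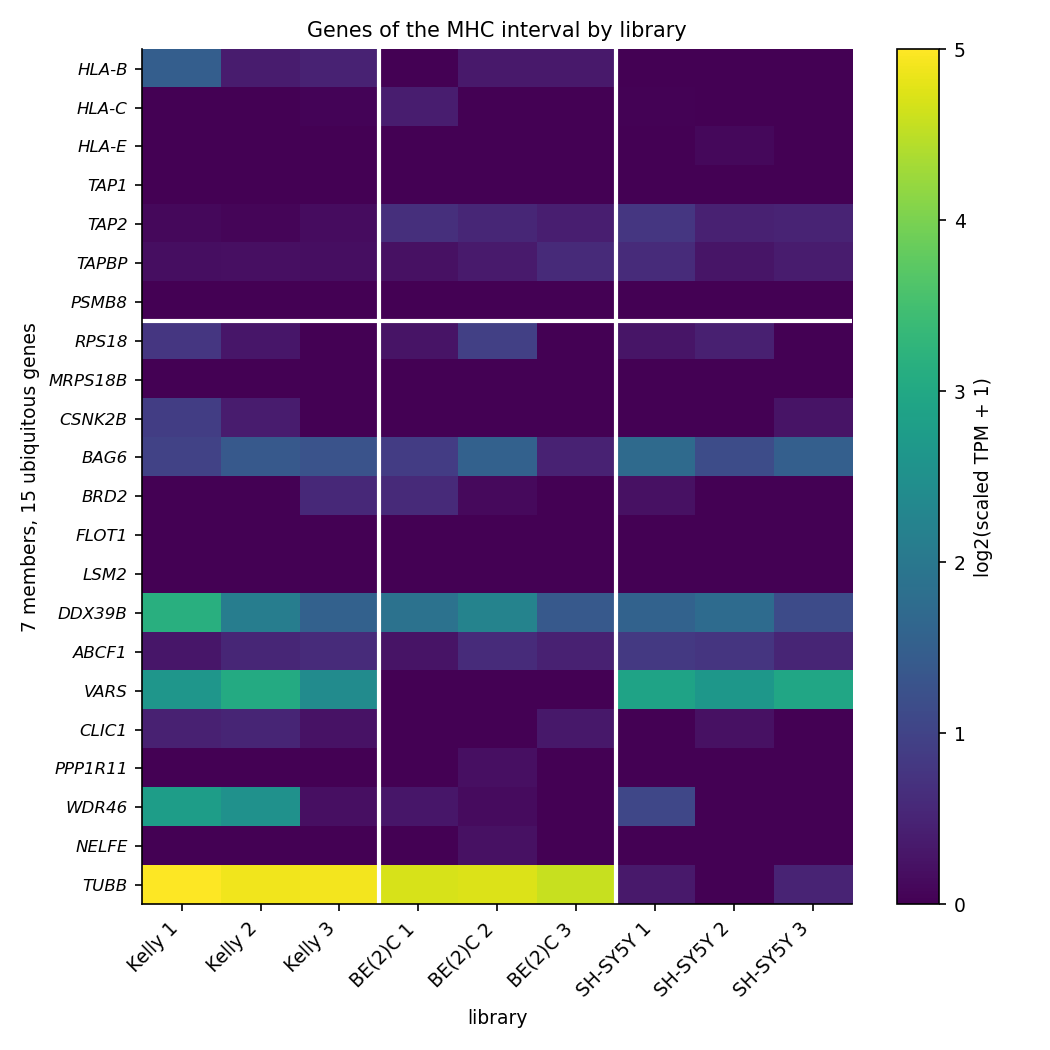
Values by library on a log2(scaled TPM + 1) colour scale (cut at 5) for the 7 members on chromosome 6 and 15 ubiquitous genes of the interval; columns run Kelly, BE(2)C, SH-SY5Y. VARS is dark in all BE(2)C libraries and TUBB in all SH-SY5Y libraries, and 3 ubiquitous genes are at 0 throughout.

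The rest of the pathway lies mostly outside this interval and was measured in all lines. Of 11 genes of peptide transport, loading and trimming, 7 passed the filter. In BE(2)C against SH-SY5Y, 6 of them were higher and 1 lower (28.6% and 30.7% of all tested genes), with a median of 1.45 on the log2 scale against -0.04 over all tested genes. In Kelly against SH-SY5Y, 4 were higher and 1 lower (28.1% and 27.2% of tested genes), although on the values as deposited the counts were 1 and 2. In Kelly against BE(2)C, 0 were higher and 5 lower (27.9% and 24.6% of tested genes), with 3 lower with library totals only. The count in BE(2)C against SH-SY5Y stayed within 1.5 times under every alternative run.

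HSPA5, the lumenal chaperone BiP, averaged 407 ± 34.3 scaled TPM in Kelly cells, 794 ± 85.0 in BE(2)C cells and 200.4 ± 5.57 in SH-SY5Y cells (SD, n = 3 each), and was 1.98 ± 0.09 higher in BE(2)C against SH-SY5Y (adjusted p = 1.70e-07). CANX (calnexin), which holds new heavy chains, was 1.45 ± 0.05 higher in BE(2)C against SH-SY5Y (adjusted p = 6.15e-08). CALR (calreticulin), of the loading complex, averaged 1108 ± 102 in Kelly cells, 1453 ± 78.9 in BE(2)C cells and 614 ± 9.92 in SH-SY5Y cells. ERAP1, which trims peptides in the endoplasmic reticulum, was higher against SH-SY5Y in Kelly (1.10 ± 0.27) and in BE(2)C (1.80 ± 0.27), the first a call lost on the values as deposited.

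TAPBPL, a tapasin relative that edits peptides, was at 1.31, 0.153 and 1.26 scaled TPM in Kelly, at 8.37, 7.66 and 4.94 in BE(2)C and at 0.350, 0.646 and 2.47 in SH-SY5Y. It was higher in BE(2)C against SH-SY5Y (1.99 ± 0.40, adjusted p = 0.00218) and lower in Kelly than in BE(2)C (-2.11 ± 0.40, adjusted p = 0.00188; limma). UGGT1, which re-glucosylates misfolded glycoproteins, ran the other way, at 16.3 ± 1.70 in Kelly cells, 24.4 ± 3.48 in BE(2)C cells and 55.6 ± 3.50 in SH-SY5Y cells. It was lower than in SH-SY5Y both in Kelly (-1.72 ± 0.13) and in BE(2)C (-1.16 ± 0.13).

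Standard proteasome subunits were abundant while interval-encoded immunoproteasome subunits were at 0. PSMB5, the subunit that PSMB8 replaces, averaged 435 ± 7.38 scaled TPM in Kelly cells, 532 ± 51.1 in BE(2)C cells and 316 ± 2.80 in SH-SY5Y cells. PSMB9, an immunoproteasome subunit encoded beside TAP1, was listed at 0 in all 9 libraries. PSMB10, the third immunoproteasome subunit and encoded on chromosome 16, was at 0.679, 0 and 0.190 in Kelly, at 9.11, 9.65 and 0.262 in BE(2)C and at 1.42, 5.15 and 0.615 in SH-SY5Y. Its libraries scattered within lines, and no comparison passed.

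Of 9 proteasome genes 7 passed the filter: 4 were higher and 1 lower in Kelly against SH-SY5Y (28.1% and 27.2% of all tested genes), 3 and 1 in BE(2)C against SH-SY5Y (28.6% and 30.7%), and 1 and 2 in Kelly against BE(2)C (27.9% and 24.6%). The 1 lower in BE(2)C against SH-SY5Y was PSME1. Its call was lost on leaving out any Kelly library, any SH-SY5Y library or BE(2)C library 2 or 3, and under several other alternatives. Without BE(2)C library 3 its difference was -0.24. With library totals only 2 were lower, and 3 as deposited. The 2 lower in Kelly against BE(2)C became 0 with library totals only, 1 with quantile normalization and 4 without BE(2)C library 3. PSMB6, the subunit that PSMB9 replaces, was higher in Kelly, both against SH-SY5Y (0.92 ± 0.10) and against BE(2)C (0.81 ± 0.10). PSME1, a subunit of the interferon-inducible proteasome activator, was at 15.7 ± 1.27 in Kelly cells, 25.4 ± 6.20 in BE(2)C cells and 34.2 ± 1.88 in SH-SY5Y cells, and was lower in Kelly against SH-SY5Y (-1.08 ± 0.17). The higher calls against SH-SY5Y depended on the scaling, as 0 remained on the values as deposited in either line, where PSMB7 and PSME3 turned to -0.21 and -0.22 in Kelly with a median of all genes of -0.43. PSMB5, -0.28 ± 0.07 in Kelly against BE(2)C, turned to 0.04 with library totals only.

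**Figure D5:**
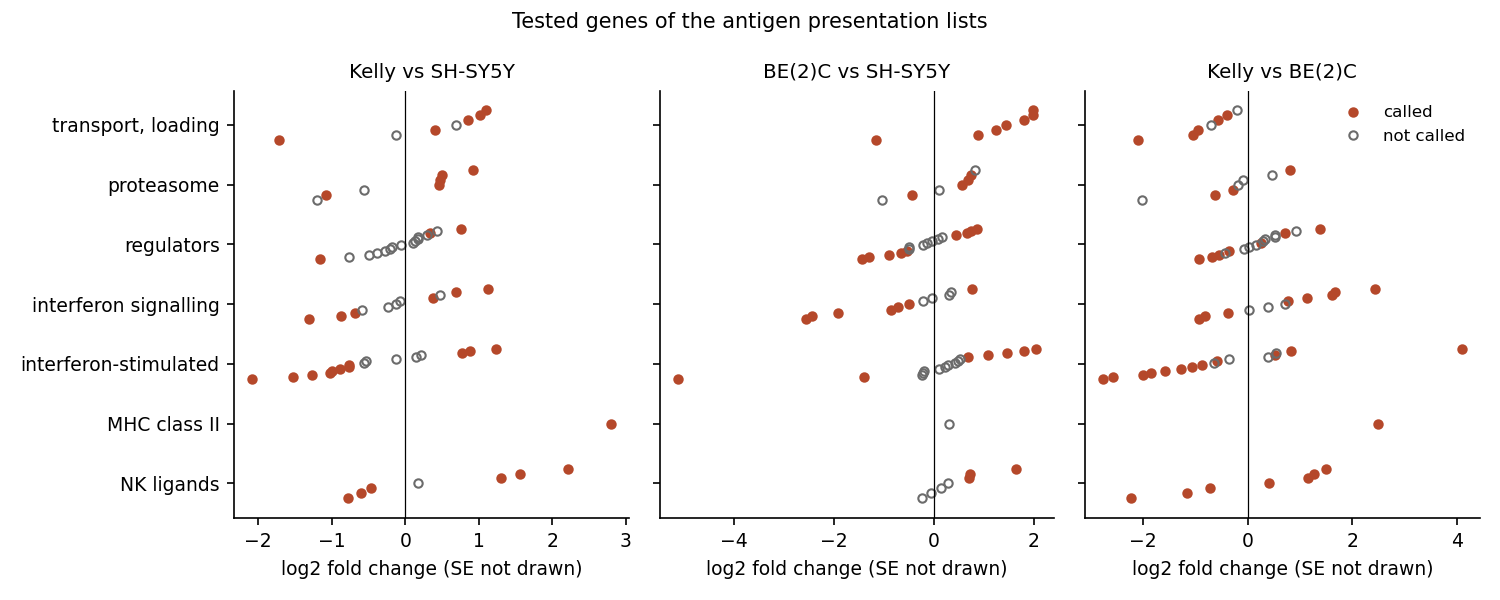
Log2 fold changes of the tested genes of 7 antigen presentation lists in Kelly vs SH-SY5Y, BE(2)C vs SH-SY5Y and Kelly vs BE(2)C; filled points were called and open points were not. In the middle panel 6 of 7 tested genes of transport and loading lie to the right and UGGT1 to the left.

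Regulators of class I promoters were mixed. Of 20 regulators 16 passed the filter: 2 were higher and 1 lower in Kelly against SH-SY5Y (28.1% and 27.2% of all tested genes), 4 and 5 in BE(2)C against SH-SY5Y (28.6% and 30.7%), and 3 and 4 in Kelly against BE(2)C (27.9% and 24.6%). These counts rested on the scaling: on the values as deposited 0 were higher and 11 lower in Kelly against SH-SY5Y, where 7457 of all 13076 tested genes were lower, and 0 were higher and 9 lower in BE(2)C, where 6639 were. The lower count in BE(2)C against SH-SY5Y was 3 without BE(2)C library 3 or SH-SY5Y library 2, and that in Kelly against SH-SY5Y was 2 without Kelly library 2. In Kelly against BE(2)C, 1 was lower without Kelly library 1 or 2 or BE(2)C library 1, and 5 were higher without Kelly library 3. RFX5, a subunit of the X-box factor that NLRC5 joins, averaged 53.3 ± 3.10 scaled TPM in Kelly cells, 44.6 ± 1.28 in BE(2)C cells and 41.8 ± 2.16 in SH-SY5Y cells. Its call in Kelly against SH-SY5Y (0.34 ± 0.08) was lost with library totals only and with mitochondrial genes out of the total (0.21 in each). As deposited RFX5 turned to -0.32, with a median of all genes of -0.43. RFXAP, its partner, was higher than in SH-SY5Y both in Kelly (0.76 ± 0.13) and in BE(2)C (0.74 ± 0.13), calls lost as deposited, and in BE(2)C also with library totals only. IRF2, a binder of interferon elements, was lower in Kelly, both against SH-SY5Y (-1.16 ± 0.16) and against BE(2)C (-0.94 ± 0.16).

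RELA, the NF-kappaB subunit that acts at class I enhancers, averaged 10.4 ± 1.35 scaled TPM in Kelly cells, 3.68 ± 1.87 in BE(2)C cells and 10.9 ± 0.933 in SH-SY5Y cells. It was lower in BE(2)C against SH-SY5Y (-1.44 ± 0.30; limma, adjusted p = 0.00282) and higher in Kelly against BE(2)C (1.38 ± 0.30). STAT2, of the type I interferon response, was lower in BE(2)C against SH-SY5Y (-1.30 ± 0.35, adjusted p = 0.0097). NFYA, of the CCAAT-binding factor, was 0.72 ± 0.09 higher in Kelly against BE(2)C. ATF1, a CRE-binding factor, was at 24.4 ± 9.83 in Kelly cells, 38.4 ± 7.66 in BE(2)C cells and 20.5 ± 2.18 in SH-SY5Y cells, with calls that several alternatives ended. B2M was thus highest in the line with the lowest mean RELA. Of the 16 tested regulators, 4 were higher in that line against SH-SY5Y and 5, RELA among them, lower.

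All 11 genes of interferon receptors and signalling passed the filter. In Kelly against SH-SY5Y 3 were higher and 3 lower (28.1% and 27.2% of all tested genes), in BE(2)C against SH-SY5Y 1 and 6 (28.6% and 30.7%), and in Kelly against BE(2)C 5 and 3 (27.9% and 24.6%). On the values as deposited 1 was higher and 6 lower in Kelly against SH-SY5Y, 0 and 8 in BE(2)C against SH-SY5Y, and 1 lower in Kelly against BE(2)C. In BE(2)C against SH-SY5Y 0 were higher with library totals only, and 3 were lower with quantile normalization. Without SH-SY5Y library 1, or with mitochondrial genes out of the total, 1 was higher in Kelly against SH-SY5Y, and without library 2 of Kelly or of BE(2)C 1 was lower in Kelly against BE(2)C. JAK1, the kinase shared by interferon receptors, was at 40.2, 45.9 and 43.2 scaled TPM in Kelly, at 22.6, 18.4 and 16.8 in BE(2)C and at 106, 108 and 111 in SH-SY5Y. The lines did not overlap, with JAK1 lower than in SH-SY5Y in Kelly (-1.31 ± 0.11; limma, adjusted p = 1.00e-05) and in BE(2)C (-2.44 ± 0.11, adjusted p = 1.70e-07). JAK2, of the interferon-gamma receptor, was lower in BE(2)C against SH-SY5Y (-1.91 ± 0.21), and so was SOCS3, an inhibitor of JAK kinases (-2.56 ± 0.22).

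The receptor chains differed less. IFNGR1, the ligand-binding chain of the interferon-gamma receptor, averaged 21.0 ± 2.47 scaled TPM in Kelly cells, 38.0 ± 5.17 in BE(2)C cells and 39.0 ± 2.01 in SH-SY5Y cells, and was lower in Kelly against SH-SY5Y (-0.87 ± 0.13). IFNGR2, its signalling chain, was lower in BE(2)C against SH-SY5Y (-0.85 ± 0.19) and higher in Kelly against BE(2)C (0.78 ± 0.19), calls lost with quantile normalization. IFNAR2, of the type I receptor, was lower in Kelly against SH-SY5Y (-0.68 ± 0.21), a call lost with quantile normalization and without SH-SY5Y library 2 (adjusted p = 0.0516) or 3 (0.0724). TYK2, a kinase of that receptor, was 0.69 ± 0.21 higher in Kelly against SH-SY5Y, but -0.01 as deposited, and the call was lost without mitochondrial genes in the total, without Kelly library 1 (0.0785) and without SH-SY5Y library 1 (0.0770) or 2 (0.0517).

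Interferon-stimulated genes were low or mixed. Of 32, 16 passed the filter, and 5 were listed at 0 in all 9 libraries, among them CXCL10 and IFIH1. In Kelly against SH-SY5Y 3 were higher and 8 lower (28.1% and 27.2% of all tested genes), with a median log2 difference of -0.66. In BE(2)C against SH-SY5Y 5 were higher and 2 lower (28.6% and 30.7%), with a median of 0.36, and in Kelly against BE(2)C 3 and 9 (27.9% and 24.6%), with a median of -0.77. As deposited 1 was higher in Kelly against SH-SY5Y, and with quantile normalization 8 were higher in BE(2)C against SH-SY5Y. OAS3, an antiviral sensor of double-stranded RNA, was at 7.27, 8.54 and 13.0 scaled TPM in Kelly, at 77.5, 51.4 and 55.6 in BE(2)C and at 20.9, 8.35 and 15.1 in SH-SY5Y, and was 2.05 ± 0.32 higher in BE(2)C against SH-SY5Y (limma, adjusted p = 4.65e-04). Its relative OAS1 was 1.09 ± 0.20 higher in that comparison, and the ubiquitin-like ISG15 was lower in Kelly against BE(2)C (-2.77 ± 0.26). IFIT5, an RNA-binding effector, was higher against SH-SY5Y in BE(2)C (1.46 ± 0.10) and in Kelly (0.88 ± 0.10), the second a call lost as deposited. IFI6, an interferon-induced membrane protein, was lower in Kelly against SH-SY5Y (-0.99 ± 0.26).

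UBE2L6, the enzyme that conjugates ISG15, was 1 of 2 stimulated genes called lower in BE(2)C against SH-SY5Y, beside DDX58, a sensor of viral RNA (-1.40 ± 0.16). UBE2L6 was at 55.5, 41.4 and 43.3 scaled TPM in Kelly, at 1.30, 2.35 and 1.74 in BE(2)C and at 96.9, 99.1 and 90.2 in SH-SY5Y, and was lower in BE(2)C against SH-SY5Y (-5.12 ± 0.16; limma, adjusted p = 2.79e-08). UBE2L6 was thus lowest in BE(2)C, the line with the most B2M, while OAS3, OAS1 and IFIT5 were, like B2M, highest there. Of the 16 tested stimulated genes, 5 were higher in BE(2)C against SH-SY5Y and 2 lower.

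Of 11 MHC class II genes, 9 lie in the interval and 8 of the list were listed at 0 in all libraries. CD74, the invariant chain, lies on chromosome 5 and was at 5.99, 7.12 and 9.43 scaled TPM in Kelly, at 0.168, 0.895 and 0.497 in BE(2)C and at 0.288, 0.263 and 0.0887 in SH-SY5Y. It was higher in Kelly against SH-SY5Y (2.80 ± 0.23; limma, adjusted p = 7.47e-06) and against BE(2)C (2.49 ± 0.23), so the 2 lines with amplified MYCN differed.

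Ligands of natural killer receptors completed the lists, with 7 of 14 tested. In Kelly against SH-SY5Y 3 were higher and 3 lower (28.1% and 27.2% of all tested genes), in BE(2)C against SH-SY5Y 3 and 0 (28.6% and 30.7%), and in Kelly against BE(2)C 4 and 3 (27.9% and 24.6%). In BE(2)C against SH-SY5Y, 1 was higher and 2 lower as deposited, 2 and 2 with library totals only, and 1 was lower without BE(2)C library 1 or without mitochondrial genes in the total. In Kelly against BE(2)C, 2 were higher without Kelly library 2, Kelly library 3 or BE(2)C library 3, and with only these lines in the fit. PVRL2 (nectin-2), a ligand of the activating receptor DNAM-1, averaged 12.6 ± 1.19 scaled TPM in Kelly cells, 63.9 ± 10.6 in BE(2)C cells and 19.6 ± 1.04 in SH-SY5Y cells, and was 1.64 ± 0.14 higher in BE(2)C against SH-SY5Y (limma, adjusted p = 8.38e-06). PVR, which binds the same receptor, was lower in Kelly (-0.47 ± 0.11) and higher in BE(2)C (0.71 ± 0.11) against SH-SY5Y, the second a call lost with library totals only and as deposited. NCR3LG1, which binds NKp30, was lower in Kelly against SH-SY5Y (-0.78 ± 0.17). CD276 (B7-H3), an immune checkpoint ligand, was 0.41 ± 0.14 higher in Kelly against BE(2)C, a call that several alternatives ended. The 3 called higher in Kelly against SH-SY5Y were ULBP1 (2.21 ± 0.16), ULBP2 (1.56 ± 0.23) and ULBP3 (1.30 ± 0.39). Each stayed under 5 scaled TPM in every library. MICA and MICB, which lie in the interval, stayed under 1 in all libraries.

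Scaling set how calls split between directions. Of the genes called, 50.8% were higher in Kelly against SH-SY5Y, 48.2% in BE(2)C against SH-SY5Y and 53.1% in Kelly against BE(2)C. As deposited the first share was 15.1% and the second 18.9%. With library totals only, the second was 23.8% and the third 74.2%, and with mitochondrial genes out of the total the second was 36.5%. The median over all genes moved with them, to -0.43 and -0.35 as deposited against SH-SY5Y in Kelly and BE(2)C, to -0.13, -0.44 and 0.31 with library totals only in the 3 comparisons, and to -0.13 and -0.23 without mitochondrial genes. Relative to that median, B2M in BE(2)C against SH-SY5Y was 1.55 by the main scaling, 1.51 with library totals only, 1.56 without mitochondrial genes and 1.08 as deposited.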

How the data were processed

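The authors deposited 1 table of log10 values; back-transformed as log10(TPM + 1), the libraries sum to 966592 to 980009. Per the submitters' processing notes, HISAT 0.1.6, Salmon 0.3.2 and GRCh38 were used, with no role given. Of 19837 entries, 92 spike-ins and 11 reporter or selection markers were left out of the totals, and 28 date-named entries out of the tests. The number of unused columns is 0. Values were rescaled to the gene total and divided by an unweighted trimmed-mean factor (trims of 30% on log ratios and 5% on log levels; factors 0.758 to 1.17). limma 3.58.1 (R 4.3.3, trend) was fitted to log2(scaled TPM + 1) over all 9 libraries; two-sided Benjamini-Hochberg adjusted p under 0.05 over 13076 genes counts as called. A fold change on this scale understates low genes. The fit was tested on simulated data.

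The 9 genes, the 8 pathway lists and the 4 marker lists were chosen with earlier results of these data known. All 9 genes are named; each list adds, per comparison, up to 4 called genes, by size of change, that reach 5 scaled TPM in the higher line, and the 3 genes most like B2M are named by profile. Some genes of these lists are not reported here. Other genes named (interval genes, DDX58, PSMB9, PSMB10, ULBP1, ULBP2, ULBP3, markers) were chosen after their values were seen. GENCODE 29 placed 18700 of 19706 symbols (94.9%); the library kit is not stated to keep strand, so overlapping genes cannot be told apart. Alternatives were another pseudocount (0.1), no filter, 4 other scalings, the 2 lines compared alone, a replicate block and leaving out each library.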

Additional observations from a re-analysis of the deposited data

Results flagged for a closer look

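B2M was picked out because its difference from SH-SY5Y was not the same in the MYCN-amplified lines. It was 0.43 ± 0.26 (SE) on the log2 scale in Kelly and 1.51 ± 0.26 in BE(2)C, against the same SH-SY5Y libraries. The difference between Kelly and BE(2)C, tested directly, was -1.08 ± 0.26 (limma, adjusted p = 0.00711), with Kelly lower in 3 of 3 libraries. Spike-ins also differed between Kelly and BE(2)C, by up to 1.24 on the log2 scale, and their part in this was not tested. Lines had 3 libraries each, too few to look for single outlying libraries.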

How the results depend on the processing

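The direction and side of the threshold of B2M held in BE(2)C against SH-SY5Y (0.73 to 1.75) and in Kelly against BE(2)C (-1.24 to -0.77) under the 17 alternatives run for each. In Kelly against SH-SY5Y it turned to -0.15 as deposited (adjusted p = 0.478; 0.28 relative to the median of all genes) and did not pass in any alternative. Leaving out 1 library at a time gave 0.22 to 0.67 in Kelly against SH-SY5Y, 1.30 to 1.75 in BE(2)C against SH-SY5Y and -1.24 to -0.89 in Kelly against BE(2)C. Genes called ranged over 6452 to 8781, 7011 to 8186 and 5768 to 6974 in these comparisons, and without 1 library over 6452 to 7372, 7011 to 7818 and 6227 to 6650.

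Replicate numbers did not pair the libraries (correlations of deviations -0.054 to 0.027; 1 of 9 libraries correlated best with its own number in both other lines). With a replicate block, B2M was 0.43, 1.51 and -1.08 with adjusted p = 0.247, 0.00326 and 0.0173, and 6980, 7544 and 6633 genes were called.

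Of the 9 genes, 7 were under 1 throughout under 3 other scalings, 8 as deposited and 8 without the 3 Kelly libraries, the last an alternative chosen after seeing the data. For the 139 interval genes the count was 102, and 97 to 127 under these 5 alternatives, also chosen after. Without the filter, 3 of 18 values of members besides B2M passed: TAP2 in both Kelly comparisons and HLA-B in Kelly against SH-SY5Y (adjusted p = 0.0429), where SH-SY5Y is at 0.

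Of 1156 alternative values of named genes, 1087 kept direction and call (41 of them at a size over 1.5 times larger or smaller, 24 of these as deposited), 64 no longer passed and 5 reversed. The reversed were PSMB7 (-0.21), PSME3 (-0.22), RFX5 (-0.32) and TYK2 (-0.01) in Kelly against SH-SY5Y as deposited, and PSMB5 (0.04) in Kelly against BE(2)C with library totals only. Of 816 list counts, 66 moved by over 1.5 times. The cause was not tested. The depth of the libraries is unknown, and it limits what can be said of the values under 1.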
